A study of Papio anubis and Macaca mulatta with 6 samples.

Results

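The ID genes (inhibitor of DNA binding) ID1, ID2, ID3 and ID4 were described in single testis cells of 2 olive baboons (Papio anubis) and 2 rhesus macaques (Macaca mulatta). The 4 genes were found by symbol among the 34178 genes listed for the baboon and the 21356 listed for the rhesus monkey. The study names no treatment of the animals, which had been euthanized for another purpose. Their testes, obtained at necropsy, were dissociated by 2 enzymatic digestions with a wash between them that was meant to remove interstitial cells. The series text gives 15 and 20 months for the baboons and newborn and 26 months for the rhesus monkeys. The study's methods give the ages of the species the other way round, and no source ties an age to one of these animals, so that levels are given by animal and not by age. Baboon 1 and rhesus 2 were each measured in 2 libraries and the other animals in 1 library each, with the 10x Genomics 3′ kit in version 3 for baboon 2 and version 2 for the others. Chemistry and animal therefore cannot be told apart in the baboon.

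ID proteins have a helix-loop-helix domain but no basic region. They pair with E proteins (TCF3, TCF4 and TCF12) and with some tissue-specific basic helix-loop-helix (bHLH) factors, and the pairs cannot bind DNA, so that ID proteins hold back the genes that those factors drive. ID genes are classical targets of BMP signalling through SMAD1, SMAD5 and SMAD9, ID1 and ID3 are known for their role in blood vessel growth, ID2 for its need in natural killer and innate lymphoid cells, and ID4 as a marker of undifferentiated spermatogonia, among which are the spermatogonial stem cells.

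The part of the coding sequence that the 4 genes share shows how alike they are. The lines give 120 coding bases of each rhesus transcript from RefSeq (Mmul_10), 5′ to 3′, which lie in the helix-loop-helix region. Capitals mark the 68 positions (56.7%) at which all 4 genes have the same base.
ID1: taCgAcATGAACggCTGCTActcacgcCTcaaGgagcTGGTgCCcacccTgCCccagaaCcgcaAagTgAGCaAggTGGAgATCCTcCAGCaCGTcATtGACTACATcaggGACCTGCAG
ID2: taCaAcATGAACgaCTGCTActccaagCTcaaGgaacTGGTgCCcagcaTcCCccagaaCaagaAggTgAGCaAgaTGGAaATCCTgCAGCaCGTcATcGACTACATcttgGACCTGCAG
ID3: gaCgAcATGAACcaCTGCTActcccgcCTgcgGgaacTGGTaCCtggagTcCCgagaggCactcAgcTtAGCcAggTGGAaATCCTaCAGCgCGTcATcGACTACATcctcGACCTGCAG
ID4: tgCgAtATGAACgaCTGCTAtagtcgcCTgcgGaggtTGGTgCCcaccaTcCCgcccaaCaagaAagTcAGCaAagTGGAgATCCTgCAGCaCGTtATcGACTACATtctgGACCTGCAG

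The stretch covers coding bases 196 to 315 of ID1, 316 to 435 of ID2, 124 to 243 of ID3 and 196 to 315 of ID4. In it, 83.3% of the bases of ID2, 70% of those of ID3 and 75.8% of those of ID4 are the same as in ID1. Over the whole transcripts, the longest run of bases shared by a pair was 19 (ID2 with ID3), and the other pairs shared runs of 11 to 15 bases, which is far shorter than a sequencing read. In the rhesus genome (Mmul_10), ID1 lies at chr10:66852363-66853477 (plus strand, 2 exons), ID2 at chr13:100084591-100087096 (minus strand, 3 exons), ID3 at chr1:201209416-201211335 (plus strand, 3 exons) and ID4 at chr4:150146881-150149254 (minus strand, 3 exons). In the baboon (Panubis1.0), they lie at chr16:58739857-58741119, chr14:8534832-8537337, chr1:21759990-21761905 and chr6:19847826-19852654. The 4 genes are thus on 4 chromosomes in each species.

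Each called cell was placed in the class of which it held UMIs (unique molecular identifiers, 1 per captured transcript) of the most distinct markers, at least 3, and no ID gene was among the markers. The 6 libraries held 16875294 to 49803025 UMIs each, and 23076 baboon and 26462 rhesus cells were kept, with median depths per library of 1445 to 2744 UMIs. In the baboon, 204 cells were germ-like, 12289 Sertoli-like, 173 Leydig-like, 4974 stroma-like, 142 contractile (vascular smooth muscle, pericyte or peritubular myoid markers), 271 endothelial-like, 35 macrophage-like and 55 lymphoid-like, and 4926 stayed unclassified. The rhesus cells were 150, 5418, 440, 14723, 306, 584, 194 and 58 in the same order, with 4581 unclassified, and all of its 58 lymphoid-like cells came from rhesus 1. In the baboon, all 19 germ and 10 of 12 Sertoli markers found were highest in their own class, as were 12 of 13 endothelial and all 10 lymphoid markers. Rhesus markers did so for 17 of 19 (germ), 9 of 12 (Sertoli), 12 of 13 (endothelial), 10 of 11 (lymphoid) and 6 of 9 (Leydig). The classes had been made with these same markers, so the counts are no independent check of the classes. Many cells also held at least 3 markers of a second list, which in germ-like cells was so in 44.1% (baboon) and 33.3% (rhesus) and in stroma in 9.47% and 10.6%. Among germ-like cells this was so in 31 of 123 in rhesus 1 but in 19 of 27 in rhesus 2. Germ-like cells were also the deepest, with median UMIs of 8910 and 11104 in the 2 baboons and of 3956 to 15150 in the rhesus monkeys. The level of a gene is given as CPM, the UMIs of the gene per 1000000 UMIs of the class in that animal, and tests compare a class with the mean of the other classes over 2 animals, with edgeR and adjustment over all genes tested.

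The 4 genes were all detected, and their UMIs were spread unevenly over the classes. ID1 gave 5445 UMIs in baboon and 3504 in rhesus cells, ID2 3278 and 7886, ID3 7053 and 6269, and ID4 2255 and 2302. Germ-like cells were 0.884% of the baboon cells and held 39.0% of all ID4 UMIs, against 7.75% of those of ID1, 6.47% of ID2 and 7.17% of ID3. In the rhesus monkey, where germ-like cells were 0.567% of the cells, they held 17.7% of the ID4 UMIs. Endothelial-like cells, 1.17% of the baboon cells, held 21.9% of the ID1 and 28.8% of the ID3 UMIs, but 0.177% of those of ID4. Rhesus endothelial-like cells were 2.21% of the cells and held 16.9% of the ID1 and 12.6% of the ID3 UMIs. Both classes were deeper than most cells, so their shares of all UMIs were larger than their shares of cells. Over all genes, baboon germ-like, endothelial-like, stroma-like and Sertoli-like cells held 2165559, 1373857, 9765870 and 56625330 UMIs. The rhesus ones held 1150433, 2234532, 23999756 and 12247071 UMIs. Levels per UMI of the class are given below as CPM.

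**Figure D1:**
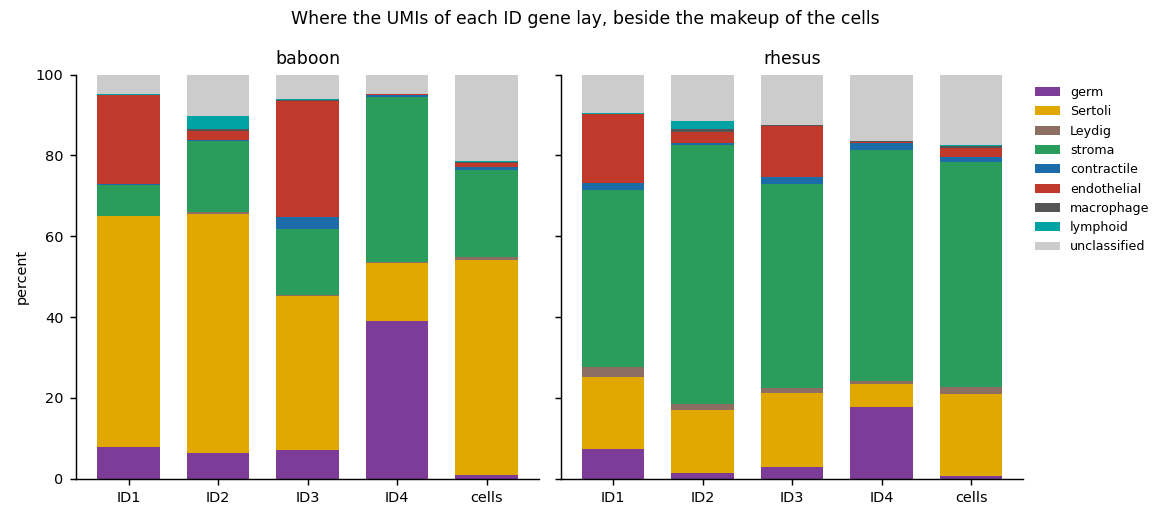
Stacked bars give the percent of all UMIs of each ID gene in called cells that lay in each marker class, with the makeup of the cells as the last bar, for baboon (left) and rhesus (right). Germ-like cells hold 39.0% of the baboon ID4 UMIs but 0.884% of the cells, and endothelial-like cells stand out in the bars of ID1 and ID3. The last bar counts cells and not UMIs, and both of these classes are deeper than most cells.

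RNA that is free in the suspension gives every droplet some UMIs, so each level was set beside that of near-empty barcodes of the same animal. In baboon 1, baboon 2, rhesus 1 and rhesus 2, free RNA held ID1 at 33.8, 93.9, 32.2 and 42.5 CPM and ID2 at 48.6, 39.7, 137 and 94.6 CPM. It held ID3 at 63.9, 159, 136 and 71.8 CPM and ID4 at 32.2, 28.9, 21.3 and 17.2 CPM. The free RNA values of baboon 2 rest on 26, 11, 44 and 8 UMIs of ID1, ID2, ID3 and ID4. Class levels close to a free RNA value therefore cannot be placed above or under it with certainty. Class levels at or under these values are named as such below, which does not by itself make them background. How much of a class level came from free RNA was not tested. The levels by class, animal and free RNA are drawn in the plot of CPM.

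**Figure D2:**
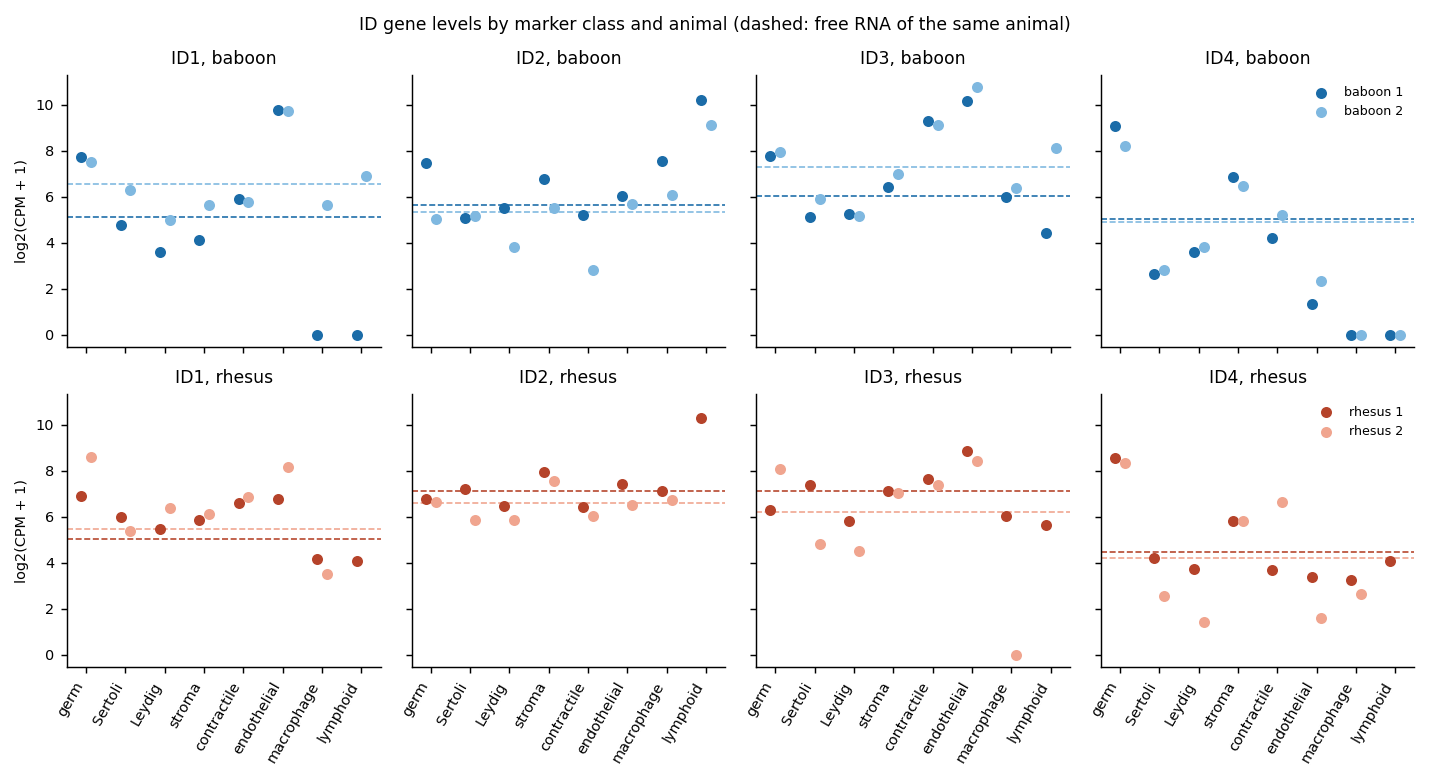
Points give the level of each ID gene as log2(CPM + 1) in each marker class (x axis) and animal (colour), with baboon above and rhesus below, and dashed lines give the level in near-empty barcodes of the same animal. ID1 and ID3 of the baboon are highest in endothelial-like cells, ID2 in lymphoid-like cells, and ID4 in germ-like cells of all 4 animals (classes of at least 10 cells; no lymphoid-like cell was found in rhesus 2).

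Among the classes with at least 10 cells, ID4 was highest in germ-like cells of every animal. Its level in germ-like cells was 535 CPM in baboon 1 and 297 CPM in baboon 2. It was 378 CPM in rhesus 1 (262 UMIs in 123 cells) and 320 CPM in rhesus 2 (146 UMIs in 27 cells). All 4 values lay above free RNA and above every other class with at least 10 cells of the same animal. Classes under 10 cells were given no level, and the 6 rhesus cells with glia markers (10421 UMIs in all) held 4 UMIs of ID4, too few to set beside germ-like cells. The 2 libraries of baboon 1 gave 539 and 527 CPM, and those of rhesus 2 gave 366 and 248 CPM. The libraries of baboon 1 were thus closer than the 2 baboons, and those of rhesus 2 further apart than the 2 rhesus monkeys. Stroma-like cells came next in the baboon, at 116 and 87.9 CPM, and had 54.5 and 55.0 CPM in the rhesus monkeys. Sertoli-like cells, the somatic cells that surround germ cells, held ID4 at 5.35 and 6.02 CPM in the baboons and at 17.5 and 4.87 CPM in the rhesus monkeys, all under the free RNA of the same animal. Endothelial-like cells held 1 and 3 UMIs of ID4 in the baboons and 2 and 4 in the rhesus monkeys. No UMI of ID4 was found in macrophage-like and lymphoid-like cells of the baboons, and against the level that 3 UMIs over both animals would give, germ-like cells were at least 12.4-fold and at least 19.1-fold higher. The ratio of the summed levels was 4.29 to stroma, 70.9 to Sertoli and 139 to endothelial-like cells in the baboon, and 6.47, 32.4 and 132 in the rhesus monkey, the endothelial ones resting on 4 and 6 UMIs.

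These differences passed the test in both species. In the baboon, 2 of the 4 ID genes (ID1 and ID4) were higher in germ-like cells than in the mean of the other classes, where 39.7% of the 10178 genes tested were called in either direction and 28.8% as higher. The rhesus ones were again ID1 and ID4, where 40.4% of 9101 genes were called and 21.4% as higher. A count of 2 in 4 is near those shares, and the size of the ID4 difference is what sets it apart from ID2 and ID3. ID4 was higher by 4.26 ± 0.48 (log2, SE) in the rhesus monkey (edgeR adjusted p = 3.18e-05). In the baboon, the fitted difference of 7.30 (edgeR adjusted p = 2.64e-08) depends on the classes without a UMI of ID4, and with the 5 largest classes alone, an alternative added after the data were seen, it was 4.68 ± 0.27. In ID4, germ-like exceeded stroma-like cells by 1.78 ± 0.37 in the baboon (edgeR adjusted p = 0.00175; 40.3% of genes called in this pair) and by 2.32 ± 0.69 in the rhesus monkey (edgeR adjusted p = 0.018; 36.5% of genes called). Contractile cells, which came next to germ-like cells in the rhesus monkey, differed from them by 2.16 ± 0.75, which did not pass (edgeR adjusted p = 0.052; 23.7% called). The median of all genes tested for germ-like cells against the others was itself 0.50 (baboon) and -0.07 (rhesus).

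ID1 was higher in germ-like cells than in the mean of the other classes by 1.48 ± 0.44 (baboon, edgeR adjusted p = 0.0134) and 1.55 ± 0.39 (rhesus, edgeR adjusted p = 0.00614). Its levels in germ-like cells were 212 and 180.2 CPM in the baboons and 117 and 383 CPM in the rhesus monkeys, each above free RNA. The 2 libraries of rhesus 2 gave 405 and 349 CPM, both above rhesus 1. With 1 animal left out, the difference was 0.56 or 5.03 (baboon) and 0.41 or 2.26 (rhesus), and with the 5 largest classes alone it did not pass the test in either species (0.88 ± 0.38 in the baboon, edgeR adjusted p = 0.0811, and edgeR adjusted p = 0.0628 in the rhesus monkey). The value of 5.03 came from baboon 1 alone, whose macrophage-like and lymphoid-like sums held no UMI of ID1. On log2(CPM + 1), the difference of that animal was 3.03. Over the alternative settings with a test, ID1 of germ-like cells was called in 12 of 14 in the baboon and in 11 of 12 in the rhesus monkey.

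ID3 in germ-like cells was at 217 and 247 CPM in the baboons and at 76.4 and 272 CPM in the rhesus monkeys, and ID2 at 176 and 32.3 CPM and at 107 and 98.6 CPM. Neither passed the test in either species. The difference of ID3 from the other classes was 0.44 ± 0.37 (baboon) and 0.27 ± 0.67 (rhesus), and in the rhesus monkey leaving out an animal gave 3.32 or -1.56. The value of 3.32 came from rhesus 2 alone, whose macrophage-like sum held no UMI of ID3. On log2(CPM + 1), the ID3 difference of rhesus 2 was 2.73. ID2 of baboon 2, ID3 of rhesus 1 and ID2 of rhesus 1 lay under free RNA. Only ID1 and ID4 thus exceeded free RNA in germ-like cells of all 4 animals.

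Germ-like cells were then split by markers of undifferentiated spermatogonia (such as PIWIL4 and GFRA1) and of differentiating ones (such as KIT and STRA8), as a description with no test. In baboon 1, ID4 stood at 536 CPM in 74 cells with more undifferentiated markers and at 548 CPM in 11 cells with more differentiating markers. In baboon 2 it stood at 295 CPM (78 cells) and 395 CPM (10 cells). In rhesus 1 the levels were 446 CPM (60 cells) and 172 CPM (23 cells), and in rhesus 2 they were 365 CPM (13 cells) and 292 CPM (9 cells). ID4 was thus higher in the more undifferentiated cells of both rhesus monkeys and not of the baboons, on few cells in rhesus 2, and a difference between the species was not tested. Cells with equal numbers of both marker kinds held ID4 at 519 (14 cells) and 220 CPM (17 cells) in the baboons. In rhesus 1 and rhesus 2 they held 350 (40 cells) and 147 CPM (5 cells). The undifferentiated marker UTF1 was not found in the rhesus gene list. The subsets also differed in depth, with median UMIs of 11727 against 2890 in baboon 1. ID1 did not order the subsets the same way in all animals, with 216 against 137 CPM in baboon 1, 176 against 288 in baboon 2, 129 against 57.3 in rhesus 1 and 365 against 363 in rhesus 2. ID3 went in opposite directions in 2 animals, with 219.8 CPM in more undifferentiated and 523 CPM (49 UMIs) in more differentiating cells of baboon 2, and 347 against 142 CPM (20 UMIs) in rhesus 2. Split by the cell cycle, germ-like cells with at least 3 cell cycle genes (such as MKI67 and TOP2A) held ID4 at 424, 283, 391 and 369 CPM in baboon 1, baboon 2, rhesus 1 and rhesus 2. Those without any held it at 371 (11 UMIs in 10 cells), 460.0 (20 in 18), 313 (45 in 48) and 357 CPM (7 in 5). The cells without any were also shallower, with median UMIs of 2157, 1551, 2331.5 and 959 against 12736, 17735.5, 9612 and 20999.

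ID1 and ID3 were called higher in endothelial-like cells, which line blood vessels, in both species. In the baboons, ID1 stood there at 888 and 852 CPM and ID3 at 1154 and 1765 CPM. In the rhesus monkeys, ID1 stood at 108 CPM (23 UMIs in 47 cells) and 282 CPM (570 UMIs in 537 cells), and ID3 at 465 and 343 CPM. All 8 levels lay above free RNA. Rhesus ID1 was not highest in this class, with 117 and 383 CPM in germ-like cells. Against the mean of the other classes, ID1 was higher by 4.22 ± 0.38 and ID3 by 3.74 ± 0.30 in the baboon (edgeR adjusted p = 3.52e-07 and 9.63e-08), which is 2 of 4 ID genes, where 17.2% of all genes were called and 14.8% as higher. In the rhesus monkey, ID1 was higher by 1.57 ± 0.38 (edgeR adjusted p = 0.0131) and ID3 by 2.05 ± 0.59 (edgeR adjusted p = 0.0318), and ID4 was lower (-3.43 ± 1.03, edgeR adjusted p = 0.0371, on 6 UMIs), which is 3 of 4, where 16.1% of genes were called, 11.2% as higher and 4.91% as lower. Each of the 3 rhesus differences was called in 12 of 14 alternative settings. With 1 animal left out they were 0.86 or 2.09 for ID1, 2.06 or 4.06 for ID3 and -3.29 or -1.66 for ID4. The 4.06 of ID3 came from rhesus 2 alone, whose macrophage-like sum held no UMI of ID3, and on log2(CPM + 1) it was 3.12. Endothelial ID2, at 65.6 and 50.5 CPM in the baboons and 169 and 90.0 CPM in the rhesus monkeys, did not pass the test (-0.28 ± 0.57 and 0.13 ± 0.40).

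The order of the classes differed between these 2 genes. In the baboon, ID1 in endothelial-like cells exceeded that in germ-like cells, the next class, by 2.40 ± 0.60 (edgeR adjusted p = 0.00473; 38.9% of genes called in this pair). The classes that follow germ-like cells in the order of ID1, which were lymphoid-like, contractile, Sertoli-like, stroma-like, macrophage-like and Leydig-like cells, did not differ from their neighbours. For ID3 the next class was the contractile one, and endothelial-like cells did not exceed it past the threshold (1.34 ± 0.49, edgeR adjusted p = 0.118; 9.06% called). For ID4, stroma-like cells exceeded contractile cells, which came next, by 1.99 ± 0.52 (edgeR adjusted p = 0.0332; 6.04% called), and no neighbours further down passed. No rhesus neighbours in the order of ID1, ID2 or ID3 passed the test, and ID1 of germ-like minus endothelial-like cells was -0.02 ± 0.53 (35.3% of genes called in this pair). Over all pairs of classes, 0.55% to 44.3% of genes were called in the 28 baboon pairs and 1.14% to 36.5% in the 21 rhesus pairs.

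ID3 also marked contractile cells, which hold smooth muscle proteins. Its level there was 624 CPM in baboon 1 (105 UMIs in 90 cells) and 559 CPM in baboon 2 (93 UMIs in 52 cells), which was above germ-like cells by 1.55 ± 0.50 (log2 of contractile minus germ-like, edgeR adjusted p = 0.0296; 26.8% called). Against the mean of the other classes, ID3 was higher by 2.21 ± 0.34 (edgeR adjusted p = 0.000272), the 1 ID gene called in this comparison, where 8.37% of genes were called, 7.9% as higher and 0.472% as lower. Rhesus ID3 stood there at 198 and 165 CPM, above free RNA, but the difference of 0.76 ± 0.69 did not pass the test. None of the 4 ID genes passed it in rhesus contractile cells by edgeR or by DESeq2, where 3.3% of all genes were called, 3.24% as higher and 0.0549% as lower. Of the 4, 1 (ID4) had an unadjusted p under 0.05, which 1066 of the 9101 genes tested had by edgeR. ID4 in contractile cells was at 17.8 and 36.1 CPM (3 and 6 UMIs) in the baboons and at 12.0 CPM (2 UMIs) in rhesus 1, but at 97.9 CPM (41 UMIs) in rhesus 2, where its 2 libraries gave 45.6 and 144.5 CPM. ID2 was lower in baboon contractile cells where the animal was taken as a block (-2.05 ± 0.60, edgeR adjusted p = 0.0131) but not without it (-2.03 ± 0.88, edgeR adjusted p = 0.228), on 6 UMIs and 1 UMI.

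**Figure D3:**
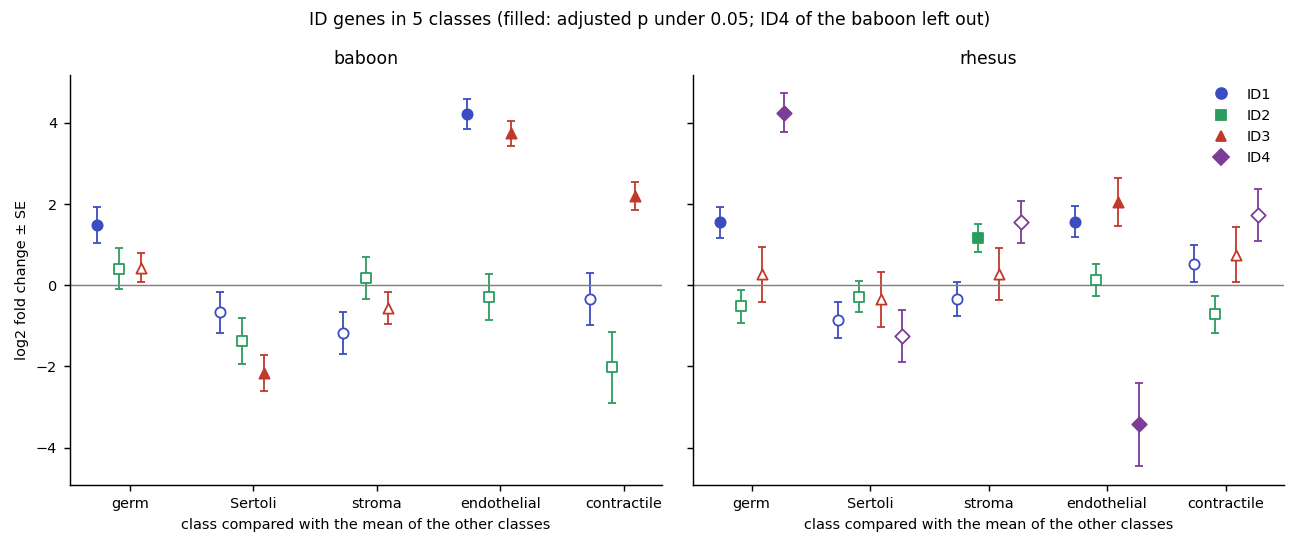
Points give the log2 fold change of each ID gene (± SE, 2 animals) in a class against the mean of the other classes, in baboon (left) and rhesus (right), filled where the edgeR adjusted p was under 0.05, and ID4 of the baboon is left out because its values depend on classes without a UMI. Endothelial ID1 and ID3 lie at 4.22 and 3.74 in the baboon and at 1.57 and 2.05 in the rhesus monkey, and rhesus ID4 lies at 4.26 in germ-like and at -3.43 in endothelial-like cells.

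ID2 was the highest ID gene of lymphoid-like cells (T and natural killer cell markers), although these were few. It stood at 1194 CPM in baboon 1 (58 UMIs in 23 cells), at 553 CPM in baboon 2 (51 UMIs in 32 cells) and at 1269 CPM in rhesus 1 (158 UMIs in 58 cells). These were the highest ID2 levels of any class in the 3 animals and exceeded free RNA in each. In the baboon, the ratio of the summed levels was 7.90 to germ-like, 13.5 to endothelial-like and 22.7 to Sertoli-like cells. The pairwise test called ID2 for 6 of the 7 other classes, from a log2 difference of germ-like minus lymphoid-like cells of -3.17 ± 0.72 (edgeR adjusted p = 0.00785; 14% of genes called in this pair) to one of contractile minus lymphoid-like cells of -5.30 ± 0.95 (edgeR adjusted p = 0.0024; 7.02% called). In the other called pairs, 9.5% (Sertoli), 5.92% (Leydig), 9.21% (stroma) and 8.2% (endothelial) of genes were called. The difference from macrophage-like cells, at 189 CPM (6 UMIs) and 66.6 CPM (4 UMIs), was 3.09 ± 0.90 and did not pass (edgeR adjusted p = 0.122; 1.62% called). With 1 animal, the rhesus level of lymphoid-like cells has no test. In lymphoid-like cells of baboon 1, ID1 and ID4 had no UMI and ID3 had 1. Those of baboon 2 held ID3 at 282 CPM (26 UMIs) and ID1 at 119 CPM (11 UMIs), both above free RNA of that animal, and no UMI of ID4. Those of rhesus 1 held 2 UMIs of ID1, 6 of ID3 and 2 of ID4, each under free RNA.

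In stroma-like cells, which are fibroblast-like interstitial cells, ID2 and ID4 were above free RNA in more animals than ID1 was. ID2 stood at 108.5 and 44.2 CPM in the baboons and at 247 and 185 CPM in the rhesus monkeys. In the rhesus monkey it was higher than in the mean of the other classes by 1.16 ± 0.34 (edgeR adjusted p = 0.0493), the 1 of 4 ID genes called, where 9.45% of genes were called, 7.56% as higher and 1.89% as lower, and this call was kept in 6 of 14 alternative settings, with adjusted p of up to 0.249. In the baboon the 1 ID gene called was ID4 (11.8% of genes called, 10.6% as higher and 1.26% as lower), with a difference of 2.39 ± 0.29 among the 5 largest classes (edgeR adjusted p = 0.000444). Rhesus ID4 of stroma-like cells exceeded that of Sertoli-like cells (Sertoli minus stroma -2.41 ± 0.70, edgeR adjusted p = 0.0337; 14.3% of genes called in this pair), and its difference from the mean of the classes was 1.55 ± 0.52, which passed with the animal as a block (edgeR adjusted p = 0.0141) and not without it (edgeR adjusted p = 0.0824). ID1 was at 16.4 and 49.1 CPM in the baboons, under free RNA, and at 56.5 and 68.8 CPM in the rhesus monkeys. ID3 stood at 85.9 and 128 CPM in the baboons and at 137 and 129 CPM in the rhesus monkeys, above ID4 in baboon 2 and in both rhesus monkeys. It lay under free RNA in baboon 2, beside it in rhesus 1 and above it in the other animals. With the animal as a block, 2 further baboon genes were lower in stroma, ID1 (-1.19 ± 0.34, edgeR adjusted p = 0.00581) and ID3 (-0.57 ± 0.21, edgeR adjusted p = 0.0411).

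In Sertoli-like cells, the largest baboon class, the ID genes were low in that species. ID1 stood at 26.2 and 78.2 CPM, ID2 at 32.8 and 35.3 CPM and ID3 at 33.5 and 58.6 CPM in the baboons, all under free RNA of the same animal. ID3 was lower than in the mean of the other classes by -2.17 ± 0.44 (log2, edgeR adjusted p = 0.0027), the 1 of 4 called, where 14.1% of genes were called and 3.45% as lower. With the animal as a block, ID2 was lower too (-1.19 ± 0.26, edgeR adjusted p = 0.000211). Rhesus ID1 was at 61.7 and 41.2 CPM, and ID1, ID2 and ID3 lay above free RNA in rhesus 1 and under it in rhesus 2. Rhesus ID2 was at 144.5 and 57.2 CPM and ID3 at 167 and 27.5 CPM, and both libraries of rhesus 2 (32.5 and 22.4 CPM for ID3) lay under rhesus 1. None of the 4 was called there by edgeR or DESeq2, where 13.4% of genes were called, 8.46% as higher and 4.92% as lower. None of the 4 had an unadjusted p under 0.05, which 2285 of the 9101 genes tested had by edgeR. Leydig-like cells, which make testosterone, held the 4 genes at 11.3 to 45.0 CPM in the baboons and at 1.67 to 88.2 CPM in the rhesus monkeys.

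The share of cells with a UMI was compared after each cell had been thinned to 1000 UMIs, since classes differ in depth, with exact binomial 95% intervals that cover counting error only. ID4 was found in 36.7% of germ-like cells of baboon 1 [27.2–47.1], 22.2% of baboon 2 [14.5–31.7], 25.2% of rhesus 1 [17.6–34.2] and 16.7% of rhesus 2 [4.74–37.4]. Before thinning these shares were 82.8%, 71.4%, 55.3% and 81.5%. In Sertoli-like cells the thinned shares were 0.44%, 0.507%, 1.19% and 0.509%, and in endothelial-like cells they were 0 of 129, 0 of 124 and 0 of 42 cells in baboon 1, baboon 2 and rhesus 1 (upper bounds of 2.82%, 2.93% and 8.41%) and 0.412% in rhesus 2. The unthinned shares of Sertoli-like cells were 1.38%, 4.72%, 2.41% and 0.904%. The intervals of germ-like and Sertoli-like cells did not overlap in any animal. Stroma-like cells lay between them, at 9.51%, 8.52%, 5.31% and 4.87% (unthinned 12.5%, 13.8%, 8.05% and 7.42%).

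ID1 was found in 56.6% [47.6–65.3] and 44.4% [35.4–53.5] of endothelial-like cells of the baboons and in 4.76% [0.582–16.2] and 18.3% [15–22] of those of the rhesus monkeys. ID3 was found in 54.3% and 67.7% in the baboons and in 38.1% and 21.2% in the rhesus monkeys. Unthinned, ID1 was found in 69.3%, 67.2%, 17% and 35.6% of them and ID3 in 71.4%, 82.4%, 55.3% and 41.3%. The intervals of ID1 and ID3 did not overlap in rhesus 1, where the share with ID3 was higher. In contractile cells ID3 was found in 33.3% and 39.1% in the baboons and in 14.9% and 11.7% in the rhesus monkeys (unthinned 43.3%, 55.8%, 21.2% and 17.3%). ID2 was found in 50% [27.2–72.8] of 20 and 40% [22.7–59.4] of 30 lymphoid-like cells of the baboons and in 67.2% [53.7–79] of 58 in rhesus 1, against 18.9% and 14.7% of rhesus stroma-like cells. Unthinned, ID2 was found in 65.2%, 53.1% and 72.4% of these lymphoid-like cells and in 27.3% and 19.8% of the stroma-like ones.

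**Figure D4:**
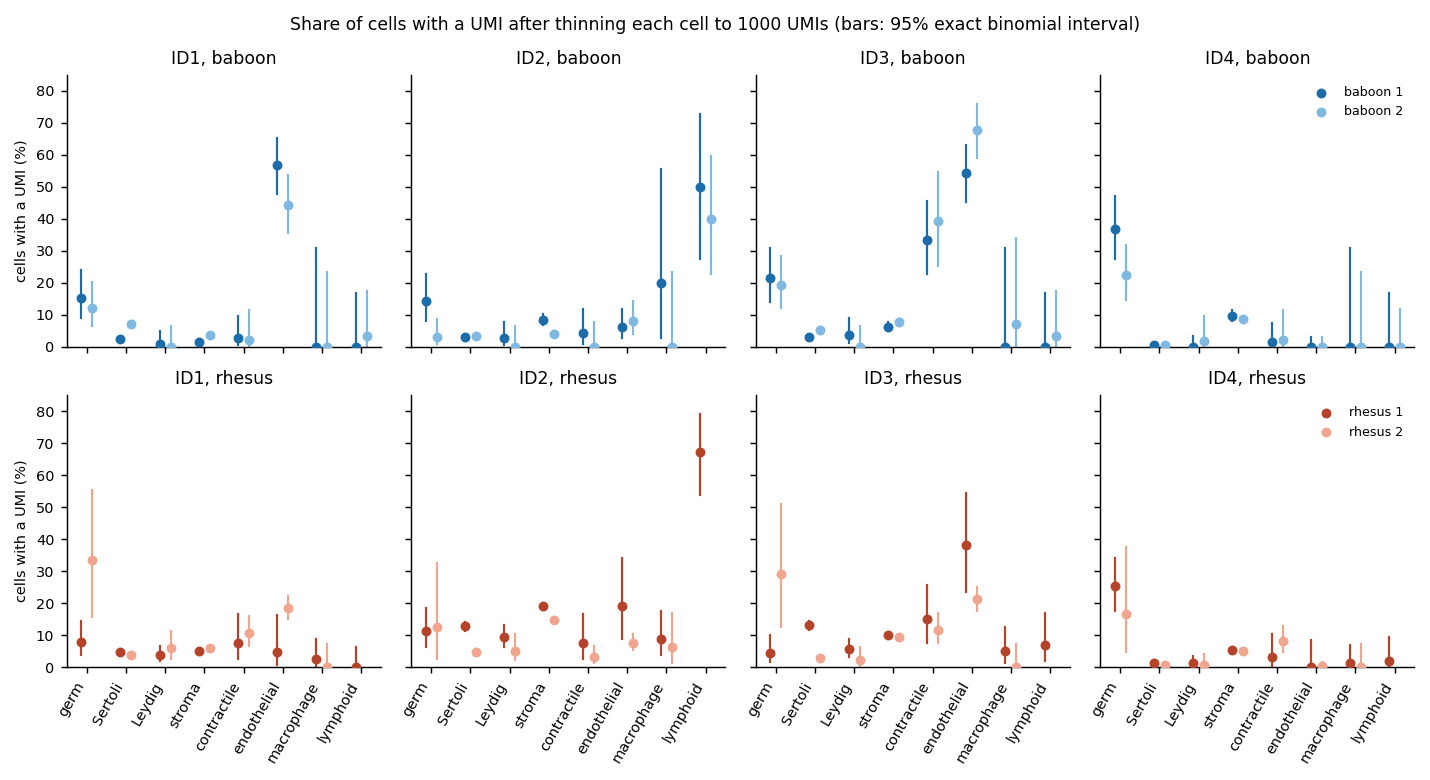
Points give the percent of cells with a UMI of each ID gene by marker class (x axis) after thinning each cell to 1000 UMIs, in baboon (above) and rhesus (below) animals, and bars give exact binomial 95% intervals. ID2 reaches 50%, 40% and 67.2% in lymphoid-like cells, and ID4 reaches 36.7% in germ-like cells of baboon 1 with 0 to 0.412% in endothelial-like cells of the 4 animals.

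Cells with UMIs of both ID1 and ID3 were counted beside the number that the product of the single shares would give, as a description. In baboon endothelial-like cells, 49 and 48 cells held both, against products of 39.6 and 37.3. In rhesus 2, 37 endothelial-like cells held both, against 18.9. In stroma-like cells the counts were 6 against 1.10 and 31 against 8.64 in the baboons, and 82 against 24.9 and 117 against 41.2 in the rhesus monkeys. The 2 genes were thus found together in more cells than the product gives in each class and animal given here, which leaves out endothelial-like cells of rhesus 1. In germ-like cells, ID3 and ID4 were found together in 9 and 8 cells of the baboons, against 7.71 and 4.22, and ID2 and ID4 in 5 cells and 1 cell, against 5.14 and 0.667. Cells that hold RNA of 2 cells, and cells that differ in composition within a class, also raise such counts, and their part was not tested.

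**Figure D5:**
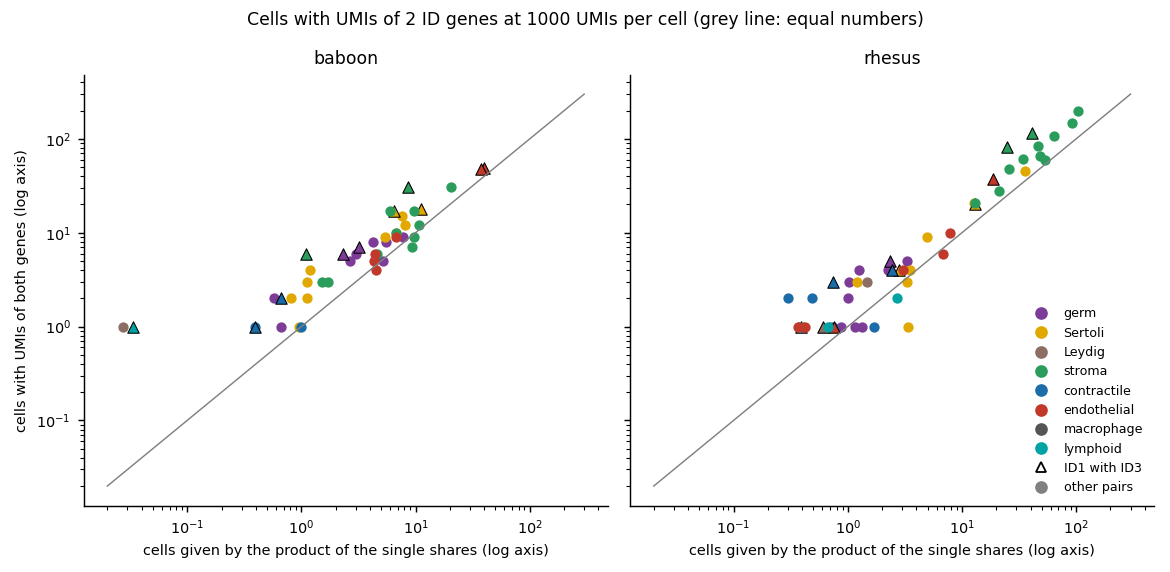
Each point is a pair of ID genes in a class and animal, with the number of cells that the product of the single shares gives (x axis, log scale) against the number of cells with UMIs of both genes (y axis, log scale), after thinning to 1000 UMIs, and pairs found together in 0 cells are not drawn. Triangles, which mark ID1 with ID3, lie above the line of equal numbers in stroma-like cells, with 82 against 24.9 and 117 against 41.2 cells in the rhesus monkeys.

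Across the 16 sums of class and animal in the baboon, which share animals and chemistry, log2(CPM + 1) of ID1 and ID3 had a Pearson r of 0.77, and across the 14 rhesus sums one of 0.75. The other pairs ranged from -0.39 (ID2 with ID4) to 0.30 (ID1 with ID4) in the baboon and from -0.13 (ID1 with ID2) to 0.38 (ID1 with ID4) in the rhesus monkey. Among 7592 baboon genes, the patterns most like that of ID1 were those of PITPNA (r = 0.94), STX6 (0.93) and PML (0.90), and for ID3 they were C1H1orf54 (0.90), PTP4A3 (0.89) and ECSCR (0.88), of which PTP4A3 was highest in contractile cells and the others in endothelial-like cells. For ID2 they were SLC9A3R1 (0.91), FNBP1 (0.86) and TBC1D10C (0.86), all highest in lymphoid-like cells, and for ID4 they were BBS5 (0.92), PODXL2 (0.92) and SERP2 (0.91), all highest in germ-like cells. Among 6015 rhesus genes they were UACA (0.94), FHL2 (0.91) and TMEM131L (0.89) for ID1, and PALM (0.95), AOPEP (0.93) and AFDN (0.90) for ID3. Of these, UACA and TMEM131L were highest in germ-like cells, AOPEP in contractile cells and the others in endothelial-like cells. For ID2 they were FBLN5 (0.77), IGFBP3 (0.74) and HIST1H2AC (0.73), all highest in stroma-like cells, and for ID4 they were BAIAP2L1 (0.90), C18H18orf21 (0.89) and SF3B4 (0.89), all highest in germ-like cells. No gene was named for the same ID gene in both species. The class given as highest is that of the highest single sum, which is 1 animal and not the mean of both. For SLC9A3R1, FNBP1 and TBC1D10C this sum was at 247, 329 and 329 CPM, in a class of only 55 baboon cells.

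Of the E proteins, the main partners of ID proteins, TCF4 could be followed in both species. It stood at 718 and 732 CPM in baboon endothelial-like cells, where it was higher by 2.59 ± 0.22 (edgeR adjusted p = 1.73e-07), and at 107 and 86.7 CPM in germ-like cells, where it was lower (-1.02 ± 0.29, edgeR adjusted p = 0.00955). In the rhesus monkeys it stood at 174 and 320 CPM in endothelial-like cells (1.90 ± 0.28, edgeR adjusted p = 0.000345) and at 24.5 and 39.4 CPM in germ-like cells (-1.94 ± 0.39, edgeR adjusted p = 0.00176). TCF4 was thus called in opposite directions in these classes in both species. Rhesus TCF3 was higher in germ-like cells, with 89.3 and 129 CPM (1.85 ± 0.30, edgeR adjusted p = 0.000367), and TCF12 was higher in rhesus endothelial-like cells (1.14 ± 0.28, edgeR adjusted p = 0.013). The baboon gene listed as TCF3 had no UMI in any class, and TCF12 was not found under that symbol in the baboon list. Either may be annotated there under another name, so the 0 of TCF3 is not read as a level. TCF4 was also higher in baboon stroma-like cells (0.81 ± 0.24, edgeR adjusted p = 0.0394), and no E protein was called in Sertoli-like or contractile cells of either species.

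Of 20 tissue-specific bHLH factors, 15 passed the baboon filter on low counts and 10 the rhesus filter. In baboon germ-like cells 9 were higher and 2 lower (28.8% and 10.8% of all genes), led by SOHLH1 at 152 and 205 CPM, SOHLH2 at 24.3 and 27.2 CPM and TCF15 at 7.08 and 84.1 CPM. SOHLH1 and SOHLH2 drive spermatogonial differentiation. In rhesus germ-like cells 4 were higher and 2 lower (21.4% and 19% of all genes), with SOHLH1 at 334 and 114 CPM, HEY1 at 76.4 and 26.3 CPM and MSC lower at 4.32 and 4.38 CPM. In endothelial-like cells, where 14.8% of baboon and 11.2% of rhesus genes were higher, 6 were higher in the baboon, led by TCF15 (32.8 and 131 CPM), ATOH8 (53.1 and 95.5 CPM) and HEY1 (17.2 and 34.1 CPM), and 3 in the rhesus monkey, which were LYL1, BHLHE40 and HES1 (70.5 and 167 CPM). In contractile cells, where 7.9% of baboon and 3.24% of rhesus genes were higher, 7 were higher in the baboon, led by HES4 (226 and 270.5 CPM), MSC and HEY1, and 5 in the rhesus monkey, led by HES4, HEY2 and MSC (119.9 and 162 CPM). HES4, HEY1 and HEY2 are targets of Notch signalling. In stroma-like cells, where 10.6% of baboon and 7.56% of rhesus genes were higher, 3 were higher in the baboon, which were TCF21 (409 and 402 CPM), MSC and TWIST2, and 2 in the rhesus monkey, TCF21 (4.08 ± 0.32, edgeR adjusted p = 4.51e-06) and MSC. None was called in Sertoli-like cells of either species by edgeR, where the medians were -1.29 (baboon) and -1.17 (rhesus) against 0.24 and 0.08 over all genes.

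BMP receptors and SMADs, which lie upstream of the ID genes, were called most often in endothelial-like cells. There, 5 of 10 were higher and none lower in the baboon (14.8% and 2.32% of all genes), and 5 of 9 were higher and 2 lower in the rhesus monkey (11.2% and 4.91%). The 5 higher ones were BMPR2, ACVRL1, ENG, SMAD1 and SMAD5 in both species. ENG, a co-receptor of endothelial cells, stood at 490.2 and 517 CPM in the baboons (3.74 ± 0.24) and at 677 and 1020.4 CPM in the rhesus monkeys (3.11 ± 0.45). SMAD1, which carries the signal to the nucleus, stood at 190.5 and 207 CPM in the baboons and at 28.2 and 49.5 CPM in the rhesus monkeys. BMPR1B, a type I receptor, had 0 and 3 UMIs in baboon and no UMI in rhesus endothelial-like cells, where it and BMPR1A were called lower.

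In germ-like cells, 3 of 10 BMP receptors and SMADs were higher and 1 lower in the baboon (28.8% and 10.8% of all genes), and 1 of 9 was higher and 2 lower in the rhesus monkey (21.4% and 19%), so the baboon counts were at the shares of all genes. BMPR1B was higher in both species, at 81.9 and 64.6 CPM in the baboons and at 38.9 and 48.2 CPM in the rhesus monkeys, and ENG was lower in both (-3.28 ± 0.41, edgeR adjusted p = 1.23e-05, and -3.43 ± 0.76, edgeR adjusted p = 0.00297). SMAD9 was higher in baboon germ-like cells, at 24.3 and 34.0 CPM. BMPR1B was also higher in Sertoli-like cells, at 46.7 and 41.5 CPM in the baboons and at 27.5 and 33.5 CPM in the rhesus monkeys. Of the 7 feedback genes, 3 baboon and 2 rhesus ones passed the filter. BAMBI, a decoy receptor, was higher in baboon germ-like (1.76 ± 0.28, edgeR adjusted p = 0.000101) and contractile cells (2.10 ± 0.32, edgeR adjusted p = 0.000213) and lower in endothelial-like cells of both species (-2.74 ± 0.45 and -1.73 ± 0.45). It was the only feedback gene called in those germ-like and contractile cells (28.8% and 7.9% of all genes higher). In baboon endothelial-like cells, 1 of 3 feedback genes was higher and 1, BAMBI, lower (14.8% and 2.32% of all genes). In rhesus ones BAMBI was the only feedback gene called (4.91% of all genes lower).

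Immediate-early genes, which also rise when tissue is dissociated, were lower in germ-like cells. All 11 passed the filter in the baboon and 9 were lower, and all 9 that passed in the rhesus monkey were lower, where 10.8% and 19% of all genes were. Their medians were -3.25 and -3.60 (log2), and the largest differences were those of ZFP36 (-4.35), ATF3 (-3.71) and JUNB (-3.58) in the baboon and of FOSB (-4.56), JUN (-4.52) and FOS (-4.51) in the rhesus monkey. Their summed level in germ-like cells was 921 and 3263 CPM in the baboons and 568 and 401 CPM in the rhesus monkeys. In stroma-like cells it was 13025 and 40359 CPM in the baboons and 16170.0 and 10082 CPM in the rhesus monkeys, where 1 of 11 (JUN) and 5 of 9 (led by JUN, JUNB and FOS) were higher, against 10.6% and 7.56% of all genes. In endothelial-like cells it was 9647 and 21114 CPM and 8137 and 4718 CPM. ID genes can respond to the same stimuli, the list moved with the classes and with baboon 2, and its part in the ID levels was not tested.

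Since ID1 and ID3 were highest in the same class of the baboon and ID4 in another, the 250 bases before the annotated start of each were read from the rhesus genome (RefSeq annotation, Mmul_10), at chr10:66852113-66852362 (plus strand) for ID1, chr1:201209166-201209415 (plus strand) for ID3 and chr4:150149255-150149504 (minus strand) for ID4. Capitals mark TATAAA or CCAAT or GTCTG (a short motif that SMADs can bind) on either strand.
ID1: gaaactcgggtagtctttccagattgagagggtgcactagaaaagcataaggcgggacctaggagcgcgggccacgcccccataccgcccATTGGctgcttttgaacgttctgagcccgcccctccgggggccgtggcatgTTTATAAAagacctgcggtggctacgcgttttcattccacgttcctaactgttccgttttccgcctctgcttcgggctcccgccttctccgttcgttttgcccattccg
ID3: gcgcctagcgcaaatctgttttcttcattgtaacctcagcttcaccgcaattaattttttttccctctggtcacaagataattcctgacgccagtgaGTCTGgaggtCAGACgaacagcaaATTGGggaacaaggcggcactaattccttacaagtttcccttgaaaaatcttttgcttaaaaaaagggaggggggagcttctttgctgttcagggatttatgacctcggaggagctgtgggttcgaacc
ID4: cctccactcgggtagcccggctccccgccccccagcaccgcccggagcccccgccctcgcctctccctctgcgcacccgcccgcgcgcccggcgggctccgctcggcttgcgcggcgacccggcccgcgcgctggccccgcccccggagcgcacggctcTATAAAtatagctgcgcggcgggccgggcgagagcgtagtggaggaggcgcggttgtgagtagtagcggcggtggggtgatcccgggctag

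TATAAA was found in the windows of ID1 and ID4, starting 107 and 91 bases before the annotated start, and in 9.85% of 20787 such windows of rhesus genes. In ID1 it overlaps a match on the other strand, TTTATA. The motif CCAAT was found in those of ID1, ID2 and ID3 and in 31.0% of all windows, and GTCTG in that of ID3, with 2 matches, and in 37.3% of all. The motifs GGCGCC and TGACGTCA, found in 17.3% and 1.47% of all windows, had no match in the 4 windows, and CANNTG, the letters that bHLH pairs bind, had a match in that of ID2 and in 60.3% of all. The windows differed in base composition, with 58% G and C in ID1, 46% in ID3, 77.6% in ID4 and 71.2% in ID2, against a median of 57.2%. These matches describe letters and were not tied to the levels.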

How the data were processed

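Testis cells of 2 baboons (3 libraries) and 2 rhesus monkeys (3 libraries) were measured with the 10x Genomics 3′ assay. The authors deposited unnormalized UMI counts for each gene and barcode, made with Cell Ranger 3.1.0 on Panubis1.0 (baboon) and Mmul_10 (rhesus) before any cell calling. Their later Seurat 3.2.3 output was not used here. No symbol in the gene lists starts with MT-, and no filter on mitochondrial share was set.

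Cells were called with pandas 2.3.3, scipy 1.17.1 and numpy 2.4.6 under Python 3.11.15 (plots with matplotlib 3.10.9) by a UMI cutoff (percentile 99 of the 5000 largest barcodes, divided by 10) or, from 500 UMIs, by comparison of their profile with near-empty barcodes (those after rank 45000 and up to rank 90000) (10000 simulations, adjusted p of at most 0.01), and kept with at least 200 genes. A cell belonged to the marker list of which it held the most distinct markers (at least 3, no ties). Doublets were kept. Counts were summed per animal and class with at least 10 cells in both animals. edgeR 4.0.16 (limma 3.58.1, R 4.3.3; TMM, filterByExpr, quasi-likelihood test, Benjamini-Hochberg over all genes, threshold 0.05) compared each class with the unweighted mean of the others, each species alone, with 8 baboon and 7 rhesus classes sharing the spread. DESeq2 1.42.0 was an alternative. Classes come from the same 2 animals, so p-values treat sums of an animal as independent. Deviations of an animal's classes correlated in all pairs (0.054 to 0.724 over 28 baboon pairs, 0.127 to 0.593 over 21 rhesus pairs), and a fit with the animal as a replicate block is given where it changed a call. The test was tested on simulated counts, in which 47% to 85% of genes changed by 2 on the log2 scale were called, and at most 0.150% of unchanged genes. The simulated sums were independent, without an animal effect, and all classes had the same profile but for 200 genes changed in 1 class. These shares therefore do not measure false calls in the real sums, where classes of an animal correlate and far more genes differ. Pairs of version 2 libraries shared cell barcodes about as often as the product of their shares gives, except the 2 libraries of rhesus 2, which shared more (109 against 79.2). Members, marker lists and gene lists were chosen with earlier results of these data known. The ID genes and E proteins were always named, as were, per list and comparison, up to 3 called members with the largest fold change, and per ID gene the 3 genes with the highest correlation among those reaching 50 CPM.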

Additional observations from a re-analysis of the deposited data

Results flagged for a closer look

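Relative to the other classes, ID3 in stroma-like cells differed in direction between the species, and the difference between them was not tested. The direction depends on the classes it is compared with. Stroma-like ID3 itself was at 85.9 to 128 CPM in the baboons and 129 to 137 CPM in the rhesus monkeys. The mean of endothelial-like cells was 1459 and 404 CPM. The fitted direction also reversed in each species under some alternative settings given below. Against the mean log2(CPM + 1) of the other classes of the same animal, ID3 of stroma-like cells was at -0.83 in baboon 1 and -0.55 in baboon 2, and at 0.11 in rhesus 1 and 1.48 in rhesus 2. The macrophage-like cells of rhesus 2 held no UMI of ID3, which lowers the mean of the other classes and raises the value of 1.48.

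Levels were also found in cells that entered no test, above those of free RNA in the same animal. Lymphoid-like cells of rhesus 1 held ID2 at 1269 CPM. Unclassified cells held ID2 at 40.2 CPM in baboon 2, ID1 at 39.6, ID2 at 152 and ID4 at 64.4 CPM in rhesus 1, and ID1 at 69.4, ID2 at 124, ID3 at 109.2 and ID4 at 48.7 CPM in rhesus 2. The value of baboon 2 is hardly above its free RNA, which was at 39.7 CPM on 11 UMIs.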

How the results depend on the processing

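The counts of ID genes called moved under these settings. With no filter on low counts they were 2 in baboon Sertoli-like, stroma-like and contractile and in rhesus stroma-like cells and 1 in rhesus Sertoli-like and contractile cells. With the animal as a replicate block they were 2 in baboon Sertoli-like and contractile and in rhesus stroma-like cells and 3 in baboon stroma-like cells. With libraries as samples they were 3 and 2 in baboon Sertoli-like and stroma-like cells, and 2, 2 and 1 in rhesus Sertoli-like, stroma-like and contractile cells. Among the 5 largest classes, an alternative chosen after seeing the data, they were 1 in germ-like cells of either species, 3 and 3 in baboon Sertoli-like and stroma-like cells and 1 in rhesus endothelial-like cells. Against all other classified cells summed, also chosen after seeing the data, they were 2 in baboon Sertoli-like and 0 in rhesus stroma-like cells, and with the DESeq2 Wald test again 2 and 0. Rhesus stroma-like cells had 0 with DESeq2 size factors, 0 with at least 2 markers and 2 with at least 5 markers, and 0 to 1 with a library left out, with 0 without library A of rhesus 2. Rhesus contractile cells had 1 with 2 of every 3 marker UMIs and 1 without marker doublets, rhesus endothelial-like cells 1 without marker doublets, and baboon contractile cells 2 with at least 2 markers. The block changed no other call than those given above.

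The direction changed for genes that were not called. In the baboon, ID1 became 2.26 (Sertoli), 1.65 (stroma) and 2.91 (contractile) with 2 of every 3 marker UMIs, and 0.64, 0.14 and 1.49 without marker doublets. Endothelial ID2 became 0.23 (UMI cutoff alone), 0.0026 (without marker doublets), 0.36 (5 largest classes), 0.38 (without library A of baboon 1) and 0.51 (other cells summed). ID3 became -0.29 in germ-like (5 largest classes) and 0.46 in stroma-like cells (other cells summed), and ID2 of stroma -0.072 (at least 5 markers). In the rhesus monkey, germ-like ID3 became -0.022 (no filter), -0.41 (5 largest classes) and -0.046 (other cells summed), stroma-like ID3 -0.33 (5 largest classes) and ID1 0.085 (without marker doublets), Sertoli-like ID4 0.37 (without marker doublets), and endothelial ID2 -0.32, -0.18 and -0.47 (2 of every 3 marker UMIs, without marker doublets, other cells summed). The causes were not tested.

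Of the 13 calls, 6 (ID4 in baboon germ-like and stroma-like, ID3 in baboon Sertoli-like, endothelial-like and contractile, ID1 in baboon endothelial-like cells) and ID4 in rhesus germ-like cells kept their direction and side of the threshold in all settings with a test. Rhesus germ-like cells gave no value with 2 of every 3 marker UMIs or without marker doublets, nor baboon contractile, macrophage-like and lymphoid-like cells with the UMI cutoff alone, since too few cells were left. Over the settings, genes called in all ranged from 2979 to 7611 (baboon germ-like, main 4038), 934 to 4267 (Sertoli-like, 1434), 571 to 2495 (stroma-like, 1204), and in the rhesus monkey from 811 to 2111 (Sertoli-like, 1218), 317 to 1802 (stroma-like, 860), 818 to 2414 (endothelial-like, 1464) and 74 to 553 (contractile, 300). Depth limits the lymphoid-like and macrophage-like classes, in which 3 UMIs are worth 32.5 to 94.3 CPM per baboon.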

Other observations

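In rhesus 1, 3 Sertoli-like cells with at least 3 cell cycle genes held 23 of the 103 ID4 UMIs of all 2321 Sertoli-like cells, at 1019 CPM, against 9.73 CPM in the 2210 Sertoli-like cells without a cell cycle gene. The other animals did not share this. Such cells held ID4 at 9.62 CPM (1 UMI in 17 cells) in baboon 1 and 15.0 CPM (13 UMIs in 41 cells) in baboon 2. In rhesus 2, 11 such cells held no UMI of ID4. Whether the 3 cells also held RNA of germ cells was not tested. The 72 stroma-like cells of rhesus 2 with at least 3 cell cycle genes held ID2 at 96.8 CPM and ID4 at 38.7 CPM (8 UMIs), against 189 and 55.9 CPM in the 8749 cells without a cell cycle gene. The 41 such Sertoli-like cells of baboon 2 held ID1 at 108.5 CPM, against 73.8 CPM in 2514 cells without a cell cycle gene. These cells were chosen after their values were seen, and no test was run on them.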
